A study of Mus musculus with 4 samples.

Results

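The genes described here are 41 members of the DNA replication and S phase programme, chosen by symbol from the 55357 genes of the deposited matrices; all 41 were found, and all 41 were among the 18182 genes that passed the filter on low counts. They were measured by single-cell RNA-seq in LSK cells, a bone marrow fraction sorted for absent lineage markers and for Sca-1 and Kit, in which blood stem cells and multipotent progenitors are found. The cells came from wild-type mice treated with Yoda1, an agonist of the mechanosensitive cation channel Piezo1, by the intraperitoneal route for 2 weeks, or from wild-type mice given vehicle (Control). Each group had 2 libraries, called Yoda1 1, Yoda1 2, Control 1 and Control 2. Whether each library stands for its own mouse is not given, nor is the age of the mice, so every p-value below rests on spread between libraries that could be purely technical. Sums over many cells were compared, in which fewer cells of a kind and less RNA per cell cannot be told apart.

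A cell that enters S phase first loads the ring-shaped MCM helicase onto DNA in G1, then activates it with Cdc45 and the GINS complex, and copies DNA with polymerases held in place by the sliding clamp PCNA. Transcription of most of these genes is switched on by E2F factors at the passage from G1 to S phase, and the repressors E2F7 and E2F8 later switch it off. In bone marrow most long-term stem cells rest outside the cycle, while multipotent and committed progenitors divide often. The members fall into 7 roles: helicase loading and licensing (6 genes), helicase activation and the fork complex (4), polymerases, primase, clamp and clamp loaders (8), nucleotide supply (3), chromatin and histone supply (10), DNA repair and degradation control (8), and a cyclin with a transcription factor (2).

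Most of these genes are known targets of E2F factors, so their promoters were searched for short words of the E2F type (the word TTCCCGC, its variant TTCGCGC, the related TTGCCGC and the further variant TTGGCGC, on both strands) and for CCAAT (on both strands). RefSeq promoters of GRCm38.p6, 250 bases before to 50 after the start site, were at hand for 31 of the 41 members (34 promoters). An E2F-type word stood in 23 of the 34 member promoters (67.6%), in 51.3% of the promoters of other replication genes, in 10.5% of those of late mitotic genes and in 9.57% of all 32851 promoters. At least 2 such words stood in 20.6% of member promoters, 28.2% of those of other replication genes and 1.18% of all promoters; overlapping words were counted apart. CCAAT was held by 67.6% of member promoters, 51.3% of those of other replication genes, 100% of late mitotic promoters and 37.4% of all promoters. Member promoters had a median GC content of 59.2%, against 52.7% for all promoters, and the part of GC content in these shares was not tested. The 6 promoters shown belong to the most abundant member with an E2F-type word in each of 6 roles; they read 5′ to 3′ on the gene's strand, and capitals mark those words, also where they lie on the opposite strand.
Mcm6, chr1:128359656-128359955, minus strand: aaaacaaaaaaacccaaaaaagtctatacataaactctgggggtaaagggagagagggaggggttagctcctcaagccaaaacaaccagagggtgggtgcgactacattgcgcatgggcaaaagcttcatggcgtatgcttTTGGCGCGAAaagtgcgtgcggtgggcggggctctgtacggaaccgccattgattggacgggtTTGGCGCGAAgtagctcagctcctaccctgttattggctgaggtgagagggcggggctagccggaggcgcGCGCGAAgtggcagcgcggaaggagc
Clspn, chr4:126556730-126557029, plus strand: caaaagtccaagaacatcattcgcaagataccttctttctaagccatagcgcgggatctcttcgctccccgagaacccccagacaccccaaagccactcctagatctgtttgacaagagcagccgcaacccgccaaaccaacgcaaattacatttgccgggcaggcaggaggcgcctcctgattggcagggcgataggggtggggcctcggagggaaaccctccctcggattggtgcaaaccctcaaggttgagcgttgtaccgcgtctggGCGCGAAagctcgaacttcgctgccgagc
Rpa2, chr4:132768110-132768409, plus strand: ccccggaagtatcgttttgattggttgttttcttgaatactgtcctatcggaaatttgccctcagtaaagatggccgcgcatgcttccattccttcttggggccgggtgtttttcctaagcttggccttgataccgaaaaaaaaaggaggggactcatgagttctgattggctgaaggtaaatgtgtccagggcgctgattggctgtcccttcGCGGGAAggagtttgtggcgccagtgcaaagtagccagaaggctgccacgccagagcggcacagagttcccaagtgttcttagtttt
Rrm1, chr7:102441445-102441744, plus strand: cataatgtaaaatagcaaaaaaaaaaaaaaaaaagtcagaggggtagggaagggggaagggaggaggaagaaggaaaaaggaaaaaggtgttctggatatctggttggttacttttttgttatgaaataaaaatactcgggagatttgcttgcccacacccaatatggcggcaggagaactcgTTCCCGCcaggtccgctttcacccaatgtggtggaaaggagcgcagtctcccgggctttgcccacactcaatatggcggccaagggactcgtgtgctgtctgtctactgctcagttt
Cdca7, chr2:72475969-72476268, plus strand: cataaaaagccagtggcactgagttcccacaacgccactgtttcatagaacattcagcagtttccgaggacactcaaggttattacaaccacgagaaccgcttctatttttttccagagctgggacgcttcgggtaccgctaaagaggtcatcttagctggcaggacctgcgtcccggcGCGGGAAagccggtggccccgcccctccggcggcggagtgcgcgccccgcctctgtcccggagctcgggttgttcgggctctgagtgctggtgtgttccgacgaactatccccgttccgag
Dtl, chr1:191575495-191575794, minus strand: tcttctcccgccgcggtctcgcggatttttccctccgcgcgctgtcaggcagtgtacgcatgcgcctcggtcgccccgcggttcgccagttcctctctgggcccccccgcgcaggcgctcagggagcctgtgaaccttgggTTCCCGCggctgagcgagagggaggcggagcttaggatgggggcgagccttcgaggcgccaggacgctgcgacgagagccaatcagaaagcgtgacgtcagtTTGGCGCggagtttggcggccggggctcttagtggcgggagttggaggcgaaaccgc
The Mcm6 promoter held 5 words, at bases -109, -106, -46, -43 and 24 from the start site. The first 4 of them form a pair of overlapping repeats. Dtl held 2, at -109 and -7, and Clspn (21), Rpa2 (-37), Rrm1 (-67) and Cdca7 (-71) held 1 each. A word match is a description of the sequence and not a measured binding site.

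The 4 libraries held 7620 to 9756 cells and 89058521 to 110493533 UMIs after filtering, with a median of 7311 to 11220 UMIs per cell, lowest in Yoda1 2. Pairs of libraries shared 14 to 30 cell barcodes. Yoda1 2 stood apart in its make-up: 39.0% of its cells passed the stem gate (a UMI of Hlf, Mecom or Procr) and no other gate, against 12.9% in Yoda1 1, 7.1% in Control 1 and 10.3% in Control 2. Its myeloid-gated share was 4.23%, and that of the other libraries 27.1% to 33.9%. Yoda1 1 stood apart in its interferon response list, whose 8 genes summed to 1054 CPM (UMI counts scaled to the library total), against 200 to 341 CPM in the other libraries. The sort markers Kit and Ly6a, which encodes Sca-1, were present in every library. Their sum was 367 and 269.7 CPM in Yoda1 libraries and 211 and 228 CPM in Control libraries. Ly6a was high in Yoda1 1 only, at 262 and 114 CPM in Yoda1 libraries and 113 and 97.9 CPM in Control libraries. Kit was at 105 and 156 CPM in Yoda1 libraries and 98.4 and 130 CPM in Control libraries, so the groups overlapped. The 7 B cell markers summed to 42.7 and 166 CPM in Yoda1 libraries and 59.9 and 189.7 CPM in Control libraries, the 5 mature neutrophil markers to 53.5 and 67.4 CPM in Yoda1 libraries and 208 and 105 CPM in Control libraries, and the 5 dendritic markers to 112.5 and 438 CPM in Yoda1 libraries and 372 and 473 CPM in Control libraries. The 6 mast cell, basophil and eosinophil markers summed to 161 and 84.0 CPM in Yoda1 libraries and 281 and 351 CPM in Control libraries, and the 5 T and NK markers to 314 and 259 CPM in Yoda1 libraries and 414 and 451 CPM in Control libraries. The sums of these 2 lists and of the neutrophil list were lower in both Yoda1 libraries than in either Control library. Nearly all of the T and NK sum was Nkg7, at 310 and 251 CPM in Yoda1 libraries and 410 and 439 CPM in Control libraries. The groups overlapped for the rest of that list (Cd3d, Cd3e, Klrd1 and Gzma). Cd3d was at 0.335 and 1.29 CPM in Yoda1 libraries and 0.233 and 0.764 CPM in Control libraries. The 5 erythroblast markers summed to 30.2 and 127 CPM in Yoda1 libraries and 71.3 and 114 CPM in Control libraries, and no gene of these lists was at 0 in any library. The part of these differences in the results was not tested. Values are therefore given per library, and with each library left out where that changes them.

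The first comparison asked whether the replication programme as a whole differed after Yoda1. The 41 genes together took 39.5 and 37.1 of every 10000 UMIs in Yoda1 1 and 2, against 38.7 and 36.3 in Control 1 and 2. The groups overlapped, and within each group the first replicate was the higher one. The means were 38.3 ± 1.69 for Yoda1 and 37.5 ± 1.68 for Control (SD, n = 2 libraries each), a difference of 0.776 (exact two-sided permutation test, p = 0.667; the smallest p this design allows is 0.33). With library sizes scaled by TMM (trimmed mean of M-values), the levels were 42.0 and 33.8 in Yoda1 libraries and 40.8 and 35.6 in Control libraries, and the difference was -0.284. With library totals it was -0.417 without Yoda1 1 and -0.414 without Control 2. With every library given the Control mean class shares, the levels were 39.4 and 38.6 in Yoda1 libraries, against 38.8 and 36.2 in Control libraries (difference 1.46, exact permutation p = 0.667), so the groups still overlapped. With gates on all UMIs or with doubled gate minimums this difference was 2.20 and 1.76, and the groups no longer overlapped. With a library left out it ran from 0.195 (without Control 2) to 2.95 (without Control 1).

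**Figure D1:**
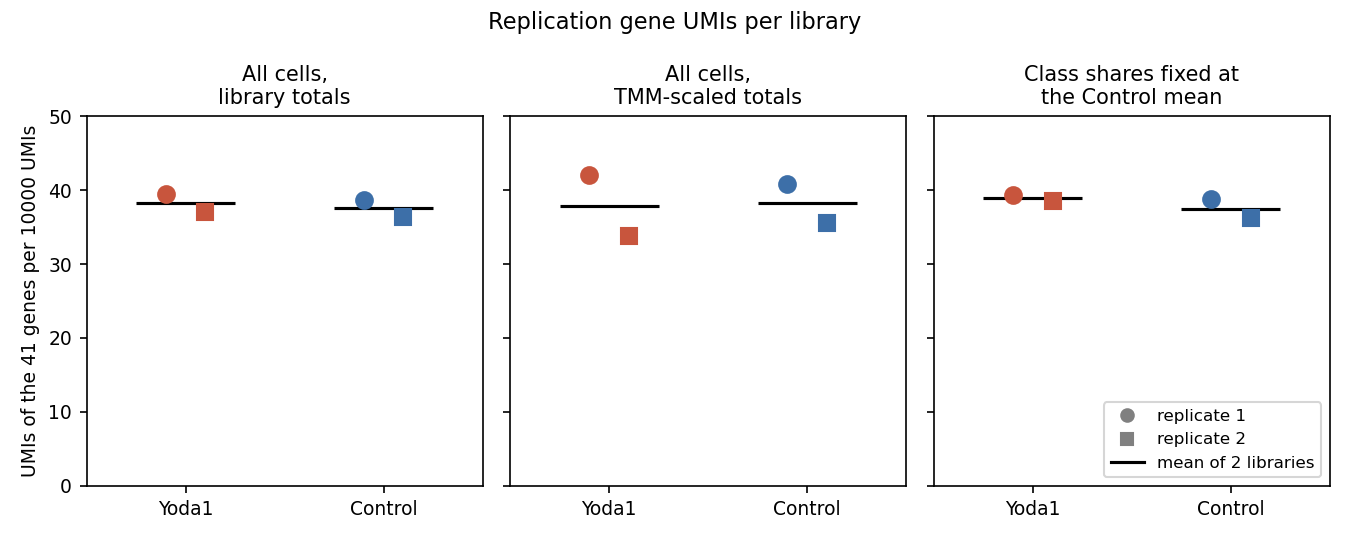
UMIs of the 41 replication genes per 10000 UMIs in each library (points; circles replicate 1, squares replicate 2) with the group mean (line), for library totals, TMM-scaled totals and class shares fixed at the Control mean. In all 3 panels the ranges of the groups overlap; with TMM scaling the Yoda1 points lie on either side of both Control points.

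At the level of single genes no member passed the test between Yoda1 and Control. By edgeR's quasi-likelihood test 0 of the 41 members and 0% of the 18182 genes tested passed an adjusted p of 0.05. At an unadjusted p under 0.05 there were 309 genes and 0 members, and DESeq2 called 4 genes (0.0132%) and 0 members. The members' log2 fold changes (Yoda1 over Control) ran from -0.31 to 0.19 with a median of -0.02, beside 0.01 for all genes tested. Of the 41 members 17 lay above 0, and 24 did so with library totals alone. For 0 members did both Yoda1 libraries lie above both Control libraries (10.6% of all genes did), and for 0 below both (10.2%); with totals alone these counts were 8 (9.4% of genes) and 1 (9.95%). Values below are TMM-normalised CPM per library, log2 fold changes carry their SE, and every adjusted p in the all-cells comparison was 1.0 by edgeR's quasi-likelihood test.

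Among the licensing genes, Mcm6, a subunit of the MCM helicase (chromosome 1, 128331590 to 128359664), was at 279 and 201 CPM in Yoda1 1 and 2, against 195 and 225 CPM in Control 1 and 2. Yoda1 1 was the high library and the groups overlapped (log2 fold change 0.19 ± 0.23). Mcm2, another subunit of the same ring (chromosome 6, 88883474 to 88898780), was at 95.6 and 76.6 CPM in Yoda1 libraries, against 119 and 84.0 CPM in Control libraries, where Control 1 stood above the rest (-0.24 ± 0.23). These 2 subunits of 1 complex thus ranked the libraries differently: Mcm6 was lowest and Mcm2 highest in Control 1. Mcm4 and Mcm5, further subunits, Cdc6, which loads the ring, and Gmnn (geminin), which blocks reloading, lay between these in log2 fold change. Together the 6 genes summed to 826 and 609 CPM in Yoda1 libraries, against 753 and 675 CPM in Control libraries.

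Of the fork genes, Tipin, a fork protection factor, was at 157 and 126 CPM in Yoda1 libraries, against 142 and 145 CPM in Control libraries. Cdc45, which activates the helicase, was at 37.1 and 29.9 CPM in Yoda1 libraries, against 38.1 and 32.5 CPM in Control libraries (log2 fold change -0.08 ± 0.19). In both genes Yoda1 2 was the lowest library. Gins2, a GINS subunit, and Clspn (claspin), a mediator of the replication checkpoint, had the same lowest library. With library totals only Cdc45 of these fork genes was still lowest in Yoda1 2. In the polymerase and clamp group Rfc2, a clamp loader subunit, was at 285 and 249 CPM in Yoda1 libraries, against 288 and 263 CPM in Control libraries. Pola1, the catalytic subunit of DNA polymerase alpha, was at 73.8 and 59.8 CPM in Yoda1 libraries, against 66.4 and 57.6 CPM in Control libraries (0.11 ± 0.19). The groups overlapped for both. Pcna, the sliding clamp, was at 233 and 232 CPM in Yoda1 libraries, inside the 266 and 217 CPM of Control libraries.

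With TMM the nucleotide supply genes were lowest in Yoda1 2. With library totals only Rrm2 was, and Tyms and Rrm1 were lowest in Control 2. Tyms, thymidylate synthase, was at 171 and 135 CPM in Yoda1 libraries, against 162 and 139 CPM in Control libraries. Rrm2, the cell-cycle-regulated subunit of ribonucleotide reductase (chromosome 12, 24708241 to 24714146), was at 87.1 and 61.4 CPM in Yoda1 libraries, against 85.0 and 79.9 CPM in Control libraries (log2 fold change -0.15 ± 0.21). Rrm1, the other subunit of the enzyme, was at 159 and 119.6 CPM in Yoda1 libraries, against 166 and 125 CPM in Control libraries. The 3 genes summed to 417 and 316 CPM in Yoda1 libraries, against 413 and 344 CPM in Control libraries.

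In the chromatin group Nasp, a histone chaperone, was at 217 and 148 CPM in Yoda1 libraries, against 218 and 166 CPM in Control libraries. Cdca7, a partner of the chromatin remodeller Hells (chromosome 2, 72476159 to 72486893), was at 184 and 124 CPM in Yoda1 libraries, against 146 and 125 CPM in Control libraries (log2 fold change 0.19 ± 0.24). For Cdca7 only Yoda1 1 stood apart, and with TMM Yoda1 2 lay just under both Control libraries. Hells itself had the widest uncertainty of the members in the all-cells comparison, with an SE of 0.29, at 124 and 75.4 CPM in Yoda1 libraries and 110.2 and 76.4 CPM in Control libraries. Among repair genes, Usp1, a deubiquitinase that acts on PCNA, was at 145 and 106 CPM in Yoda1 libraries, against 126 and 116 CPM in Control libraries. Blm, the Bloom helicase (chromosome 7, 80454733 to 80535119), was at 47.9 and 29.8 CPM in Yoda1 libraries, against 49.4 and 41.6 CPM in Control libraries (-0.23 ± 0.25). The log2 fold change of largest size among the members was that of E2f8, the late E2F repressor (chromosome 7, 48866429 to 48881596), at -0.31 ± 0.25. E2f8 was at 43.2 and 26.2 CPM in Yoda1 libraries, against 43.4 and 42.7 CPM in Control libraries, so that 1 library, Yoda1 2, was low and the other 3 were alike. Ung, a uracil-DNA glycosylase, was instead highest in Yoda1 2, with 38.2 and 49.6 CPM in Yoda1 libraries and 45.5 and 47.5 CPM in Control libraries.

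With TMM scaling most members ranked the libraries in a like order. Yoda1 1 lay above both Control libraries for 23 of 41 members (26.9% of all genes) and below both for 2 (28.7%). Yoda1 2 lay below both for 28 (36.6% of all genes) and above both for 1 (39.3%). Control 1 exceeded Control 2 for 37 members (48.9% of all genes) and Yoda1 1 exceeded Yoda1 2 for 38 (47.2%). This order was looser with library totals alone, where Yoda1 1 lay above both Control libraries for 21 members (18% of genes) and below both for 6 (39.5%). Yoda1 2 then lay below both for 15 (23.2% of genes) and above both for 14 (54.4%), so it was no longer the low library for most members. Control 1 exceeded Control 2 for 29 members (36.3% of genes), and Yoda1 1 exceeded Yoda1 2 for 29 (29.3%). With TMM, leaving out single libraries moved the list as follows. Without Yoda1 1 the median log2 fold change of the members was -0.19, with 3 of 41 above 0. Without Yoda1 2 it was 0.13, with 34 above 0, so the direction of the list turned with the library left out. Without Control 1 the median was 0.09, and without Control 2 it was -0.12. edgeR called 0 members in each of these 4 fits, while it called 4.96% of genes without Yoda1 1, 1.11% without Yoda1 2, 0% without Control 1 and 0.0156% without Control 2.

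**Figure D2:**
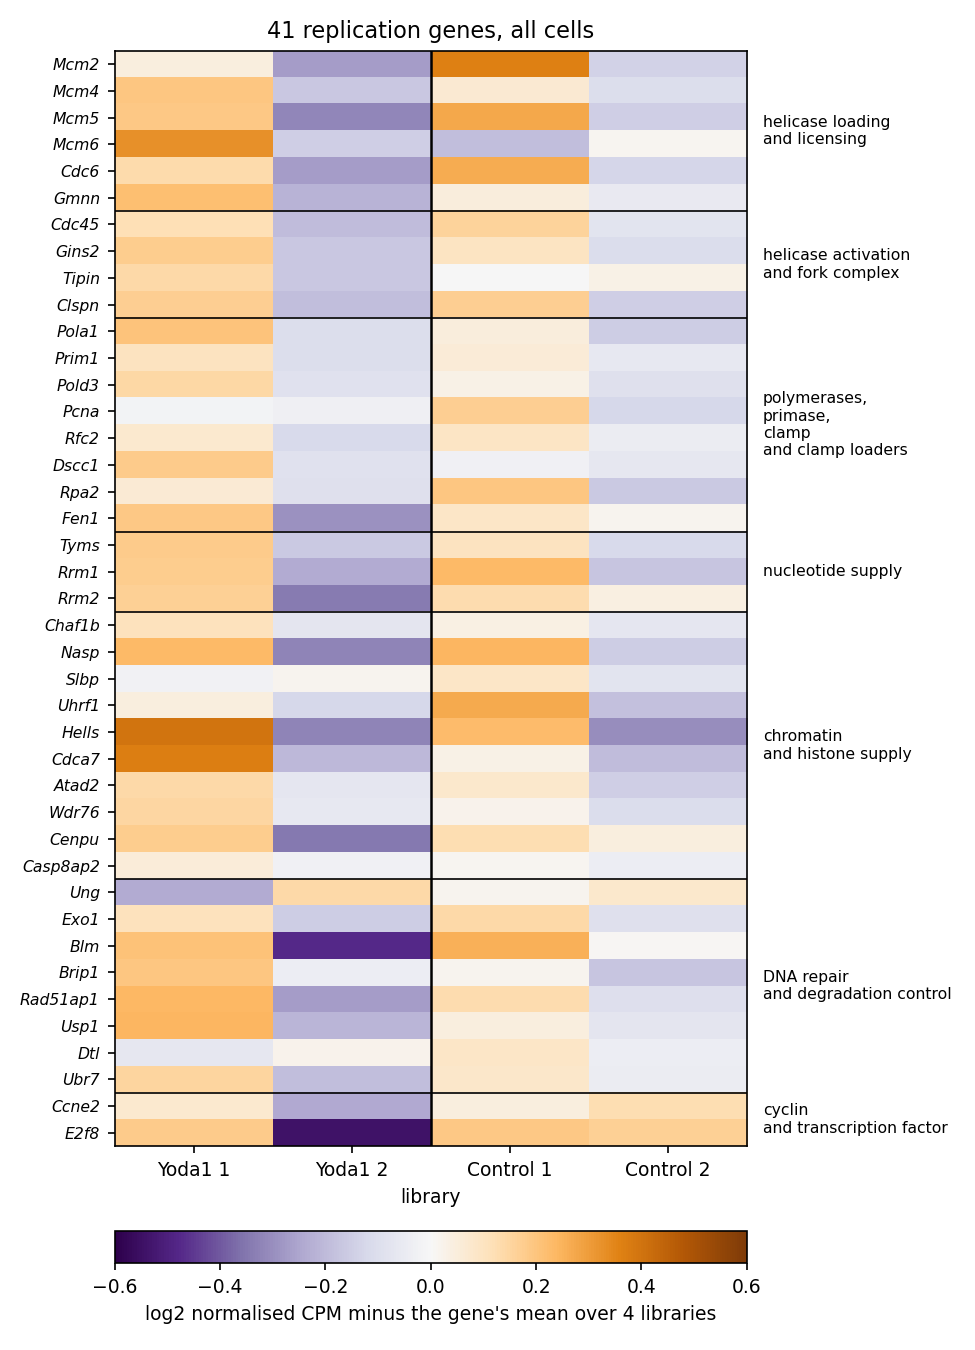
Level of each of the 41 genes (rows, grouped by role) in the 4 libraries (columns), as log2 TMM-normalised CPM minus the gene's mean over the libraries. The Yoda1 1 and Control 1 columns are mostly above the mean (orange) and the Yoda1 2 and Control 2 columns mostly below it (purple), and E2f8 and Blm are lowest in Yoda1 2.

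Other genes of the same pathway did not pass either. Of 38 further replication genes 0 passed edgeR's test over all cells, with a median log2 fold change of -0.05. Among the 37 of them with a mean of at least 10 CPM, Rnaseh2a, a subunit of the nuclease that removes RNA primers, was lowest at -0.22 ± 0.22, followed by the histone chaperone genes Asf1b (-0.18) and Chaf1a (-0.17). Rfc1 (0.17) and Rfc3 (0.16), clamp loader subunits, and Cdc7 (0.17), the kinase that fires origins, were highest. Under that level stood Orc1, the largest subunit of the origin recognition complex, with a log2 fold change of -0.20 ± 0.26. Of 17 regulators of the passage from G1 to S phase 0 passed with all libraries in the fit. Their log2 fold changes ran from -0.34 to 1.30. They ran from -0.91 to 1.94 without Yoda1 1 and from -0.18 to 0.26 without Yoda1 2. Among the 14 of at least 10 CPM, Ccne1, cyclin E1, was at -0.34 ± 0.35, E2f4 at -0.22 and Tfdp1, the E2F partner DP1, at -0.17, while Rbl2 (0.26 ± 0.22) and Rbl1 (0.10), of the retinoblastoma family, and E2f3 (0.15) were highest. Of the others, Cdkn1c, which encodes the cyclin-dependent kinase inhibitor p57 and is known from resting stem cells, had 1.30 ± 0.56 and did not pass (unadjusted p = 0.0527, edgeR adjusted p = 1.0). It was at 3.38 and 12.05 CPM in Yoda1 libraries, against 2.77 and 3.49 CPM in Control libraries, so that Yoda1 2, the library with the most stem-gated cells, alone was high. E2f7 was at 0.18.

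The next comparison asked how the programme varied between kinds of LSK cell. Cells were thinned to 3000 UMIs and gated by markers that are not members. The gates were stem (Hlf, Mecom, Procr), lymphoid (Dntt, Il7r, Rag1), myeloid (Elane, Prtn3, Ctsg), MkE (7 megakaryocyte and erythroid genes such as Gata1 and Klf1), or Flt3 alone. Cells that passed 2 or more gates (16.0% to 20.0%) and cells that passed none (8.89% to 13.0%) were left out of these contrasts. Most members were higher in the progenitor gates than in stem-gated cells. edgeR's quasi-likelihood test with library as a block, on sums per library and class, called 21 of 41 members higher in Flt3-gated than in stem-gated cells and 0 lower (11% of 13730 genes were higher and 6.23% lower). It called 34 higher in lymphoid-gated cells and 0 lower (22.1% and 19.6% of genes), and 36 higher in myeloid-gated cells and 0 lower (33.8% and 38.2%). In MkE-gated cells it called 34 higher (34.5%) and 2 lower (39%). In either direction it called 17.2%, 41.7%, 71.9% and 73.5% of genes in Flt3, lymphoid, myeloid and MkE over stem, so most genes were called in the myeloid and MkE contrasts, with more of them lower than higher, while the members called (36 of 41 in each) were mostly higher. The median log2 fold changes of the members were 0.27, 0.37, 0.54 and 0.46 for Flt3, lymphoid, myeloid and MkE over stem, beside 0.00, -0.00, -0.06 and -0.06 for all genes. Median UMIs per cell ran from 13001.5 to 15348 in myeloid-gated and from 6183 to 6865 in stem-gated cells, and the part of depth was not tested.

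These sizes depended on the scaling. With library totals in place of TMM the median of all genes moved to -0.11, -0.14, -0.39 and -0.28 in the same order, and the members' medians to 0.17, 0.23, 0.20 and 0.24. The calls among members were then 12 higher (5.5% of genes) and 0 lower (12.6%) in Flt3-gated cells, and 26 higher (12.3%) and 1 lower (32.9%) in lymphoid-gated cells. They were 23 higher (17.4%) and 5 lower (59%) in myeloid-gated cells, and 23 higher (23.5%) and 6 lower (50.9%) in MkE-gated cells. Under both scalings 10 members were higher than in stem-gated cells in all 4 contrasts: Mcm5, Mcm6, Gmnn, Cdc45, Gins2, Tipin, Fen1, Rrm1, Rrm2 and Nasp. These include 3 licensing genes, 3 fork genes and both ribonucleotide reductase subunits. No member was called in opposite directions by the 2 scalings.

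Rrm2 had the largest log2 fold change over stem of any member, in myeloid-gated cells. It was at 131 and 132 CPM in myeloid-gated cells of Yoda1 1 and 2 and at 118 and 128 CPM in those of Control 1 and 2. In stem-gated cells it was at 42.7 and 37.0 CPM in Yoda1 libraries and 45.5 and 34.5 CPM in Control libraries, and the 2 classes did not overlap (log2 fold change 1.71 ± 0.09, edgeR adjusted p = 2.8e-13). It was also highest of the members over stem in lymphoid-gated cells (1.09 ± 0.10) and Flt3-gated cells (0.74 ± 0.12). Cdc45 (0.67 ± 0.09), Gins2 (0.63 ± 0.06) and Mcm6 (0.58 ± 0.07) came next in lymphoid-gated cells, and Ung (0.55 ± 0.11) and Ccne2 (0.53 ± 0.16) in Flt3-gated cells. Cdc45 (1.07 ± 0.08), Fen1 (0.92 ± 0.06), the nuclease that trims Okazaki fragments, and Cenpu (0.87 ± 0.08), a centromere protein, followed in myeloid-gated cells. Rrm1 had a log2 fold change of 0.59 ± 0.05 in the same cells. At the other end Dtl, which marks proteins for degradation at the fork, and Chaf1b, a histone chaperone subunit, had log2 fold changes of 0.00 and 0.01 in myeloid over stem with TMM, and of -0.33 and -0.32 with totals alone.

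In MkE-gated over stem-gated cells E2f8 and Blm had the largest log2 fold changes of the members. E2f8 was at 71.5 and 72.2 CPM in MkE-gated cells of Yoda1 libraries and 60.0 and 75.2 CPM in those of Control libraries. In stem-gated cells it was at 29.1 and 19.5 CPM in Yoda1 libraries and 25.9 and 25.05 CPM in Control libraries (log2 fold change 1.52 ± 0.09, edgeR adjusted p = 5.9e-13). Its log2 fold change over stem was 0.71 ± 0.09 in myeloid-gated cells (edgeR adjusted p = 3.3e-07). It was 0.14 ± 0.10 in lymphoid-gated and 0.06 ± 0.14 in Flt3-gated cells, where it did not pass. The log2 fold change of Blm was 1.15 ± 0.06 (edgeR adjusted p = 8.3e-14), that of Fen1 1.03 ± 0.06 and that of Rrm2 0.82 ± 0.09. Brip1, a helicase partner of BRCA1, was lower there (-0.29 ± 0.09), at 18.4 and 18.04 CPM in MkE-gated cells of Yoda1 libraries and 15.9 and 15.3 CPM in those of Control libraries. In stem-gated cells Brip1 was at 24.2 and 19.4 CPM in Yoda1 libraries and 21.8 and 17.2 CPM in Control libraries. Hells was also called lower (-0.18 ± 0.08), but both genes were above 0 when the gates were set on all UMIs of a cell (0.50 and 0.13), so their direction depended on the gate. A test of the difference between MkE-gated and myeloid-gated cells was not made.

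**Figure D3:**
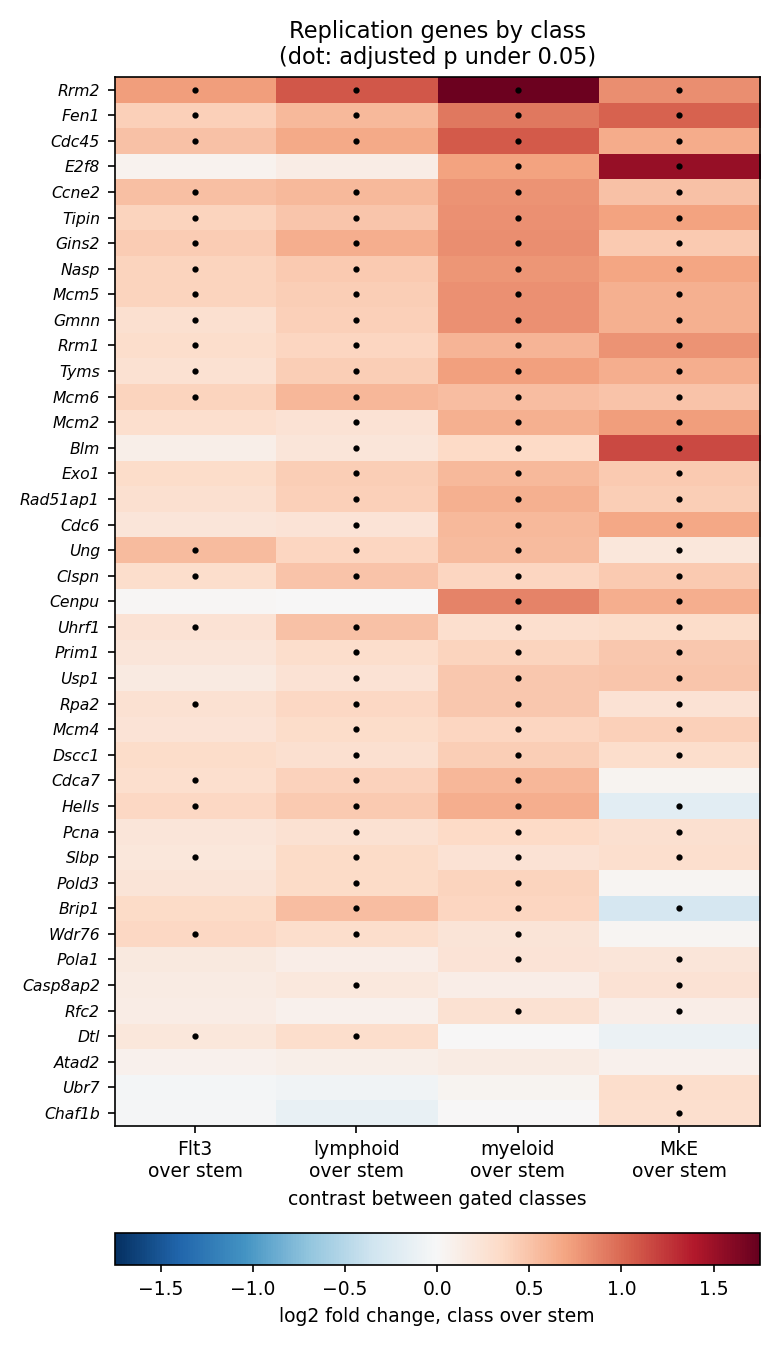
Log2 fold change of the 41 genes (rows, ordered by their mean) in Flt3-, lymphoid-, myeloid- and MkE-gated cells over stem-gated cells, with TMM scaling; dots mark an edgeR adjusted p under 0.05. Rrm2 is deepest red in myeloid over stem and E2f8 and Blm in MkE over stem, while Brip1 and Hells are blue in MkE over stem.

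Of the 38 other replication genes 19 were higher in Flt3-gated, 33 in lymphoid-gated, 35 in myeloid-gated and 35 in MkE-gated than in stem-gated cells. Of all genes 11%, 22.1%, 33.8% and 34.5% were higher. In MkE-gated cells 1 of the 38 was lower (39% of genes). With library totals the counts higher were 7, 22, 23 and 23 (5.5%, 12.3%, 17.4% and 23.5% of genes). Those lower were then 0, 1 and 3 in Flt3-, lymphoid- and myeloid-gated cells (12.6%, 32.9% and 59% of genes). The count lower in MkE-gated cells, where 50.9% of genes were lower, is not given here. The 17 regulators of the passage from G1 to S phase went both ways with TMM. In the same order 5, 9, 8 and 7 were higher and 2, 2, 4 and 4 lower. Of all genes 6.23%, 19.6%, 38.2% and 39% were lower.

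The members were then ordered by whether they stayed high in cells rich in mitotic transcripts. Thinned cells with at least 10 UMIs of 20 late mitotic genes (such as Ccnb1 and Plk1, none of them a member) made up 15.8% and 10.9% of cells in Yoda1 1 and 2, against 15.6% and 13.5% in Control 1 and 2. Cells with none made up 26.0% and 43.3% in Yoda1 libraries, against 25.01% and 35.9% in Control libraries. The mitotic-high class is a range of a score, and 208 to 415 cells per library lay within 1 UMI of its limit. edgeR's quasi-likelihood test with library as a block called 10 members higher in mitotic-high than in mitotic-none cells. Of all genes 24.6% were higher, a share close to that of the members. The same test called 24 members lower (26% of genes). In either direction 50.6% of genes were called. The members' median log2 fold change was -0.39, beside -0.03 for all genes.

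This contrast pools all classes, and the classes differed in their share of mitotic-none cells, from 36.4% and 50.5% of stem-gated cells in Yoda1 libraries (34.3% and 44.5% in Control libraries) to 19.7% and 23.9% of MkE-gated cells in Yoda1 libraries (20.8% and 28.6% in Control libraries). The part of class make-up in it was not tested. In stem-gated cells the 41 genes took 29.4 and 27.8 of every 10000 UMIs in mitotic-high cells and 29.2 and 27.0 in mitotic-none cells of Yoda1 1 and 2. In Control 1 and 2 they took 25.6 and 23.1 in mitotic-high and 31.8 and 25.4 in mitotic-none stem-gated cells, so the 2 states overlapped. Within a library, mitotic-high stem-gated cells were slightly above mitotic-none ones in both Yoda1 libraries and below them in both Control libraries. In myeloid-gated cells the 41 genes took 26.7 and 24.3 in mitotic-high and 44.5 and 36.6 in mitotic-none cells of Yoda1 libraries. They took 23.5 and 21.9 in mitotic-high and 44.0 and 40.4 in mitotic-none cells of Control libraries, with no overlap. The states overlapped in Flt3- and lymphoid-gated cells but not in MkE-gated cells.

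By role, of the 6 licensing genes 5 were lower in mitotic-high cells, among them Mcm2 (log2 fold change -1.12 ± 0.07), Mcm6 (-1.11 ± 0.06) and Mcm4 (-1.08 ± 0.11). Gmnn, the inhibitor of licensing, was the exception (0.11 ± 0.08, not passed). Of the chromatin genes 8 of 10 were lower, including Chaf1b (-1.09 ± 0.06) and Hells (-1.03 ± 0.09), and of the polymerase and clamp genes 5 of 8, including Pcna (-0.75 ± 0.09). Of the nucleotide supply genes none was lower: Rrm1 (0.79 ± 0.09) and Tyms (0.37 ± 0.09) were higher and Rrm2 was at 0.50 ± 0.23 and did not pass (edgeR adjusted p = 0.104). The repair group was split, with 4 higher and 3 lower.

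Ung showed the largest difference of any member. It was at 3.58 and 7.09 CPM in mitotic-high cells of Yoda1 1 and 2 and at 7.04 and 4.79 CPM in those of Control 1 and 2. In mitotic-none cells it was at 65.1 and 63.5 CPM in Yoda1 libraries and 77.5 and 68.4 CPM in Control libraries (log2 fold change -3.64 ± 0.13, edgeR adjusted p = 1.5e-07). Ccne2, cyclin E2, which drives entry into S phase, was also low, at 3.67 and 4.90 CPM in mitotic-high cells of Yoda1 libraries and 4.42 and 3.63 CPM in those of Control libraries. In mitotic-none cells Ccne2 was at 15.3 and 7.65 CPM in Yoda1 libraries and 14.5 and 12.4 CPM in Control libraries (-1.57 ± 0.19). E2f8 was the highest member at the other end (0.999 ± 0.15), at 44.8 and 36.2 CPM in mitotic-high cells of Yoda1 libraries and 44.7 and 49.2 CPM in those of Control libraries. In mitotic-none cells E2f8 was at 28.8 and 10.6 CPM in Yoda1 libraries and 27.8 and 24.4 CPM in Control libraries. The repair genes Blm (0.80 ± 0.08) and Brip1 (0.78 ± 0.13), and Cenpu (0.69 ± 0.09), were higher too. Each of these 4 genes was higher in mitotic-high cells in 4 of 4 libraries.

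**Figure D4:**
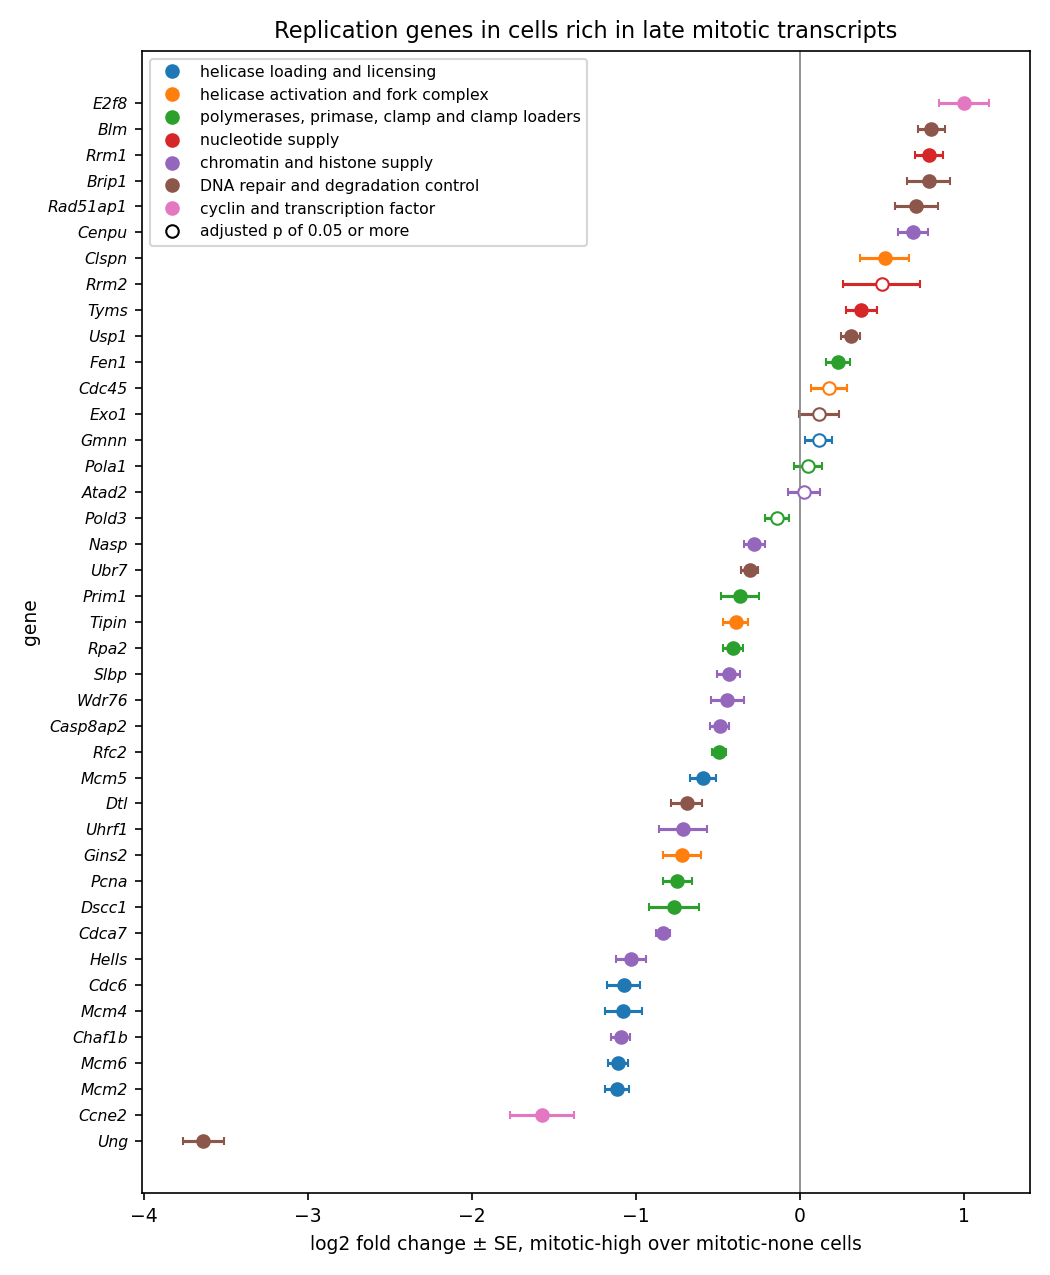
Log2 fold change with SE of each of the 41 genes in mitotic-high over mitotic-none cells, coloured by role; open points did not pass an edgeR adjusted p of 0.05. Mcm2, Mcm6 and Mcm4 sit between -1.12 and -1.08, Ung lies apart at -3.64, and E2f8 is highest at 0.999.

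The direction of the list depended on the limit of the mitotic-high class. At 5 UMIs in place of 10, 17 members were called higher (27.5% of 15151 genes). The members called lower were then 13 (28.1% of genes, a share close to that of the members), and the members' median log2 fold change was -0.01. More members were thus called higher than lower, the reverse of the result at 10 UMIs. With all classes pooled, cells with some late mitotic UMIs but under 10 had the highest level of the 41 genes. Their mean was 12.5 and 11.8 per 3000 in Yoda1 libraries and 12.3 and 11.4 in Control libraries. Mitotic-high cells held 8.07 and 8.62 per 3000 in Yoda1 libraries and 7.67 and 7.28 in Control libraries. Mitotic-none cells held 9.73 and 7.68 in Yoda1 libraries and 10.1 and 8.17 in Control libraries, so in Yoda1 2 they lay below mitotic-high cells. In myeloid-gated cells of Yoda1 1 and Control 1 the mitotic-none state was highest, at 44.5 and 44.0 per 10000. Cells with some late mitotic UMIs but under 10 had 42.5 and 42.4 there. Over all thinned cells the median cell had 10 and 7 UMIs of the 41 genes in Yoda1 libraries, against 10 and 8 in Control libraries, and the 90th percentile was 21 and 21 in Yoda1 libraries and 21 and 20 in Control libraries. Cells with no UMI of any member made up 0.591% (exact Clopper-Pearson 95% interval 0.443 to 0.772) and 1.56% (1.32 to 1.83) in Yoda1 libraries, against 0.676% (0.502 to 0.891) and 1.32% (1.08 to 1.60) in Control libraries. These intervals cover counting error only.

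The last comparison asked whether Yoda1 changed the programme inside each class. The module level in stem-gated cells was 35.6 and 33.1 per 10000 UMIs in Yoda1 libraries, against 37.5 and 31.3 in Control libraries, so the Control libraries spanned the Yoda1 ones. In myeloid-gated cells it was 39.6 and 37.6 in Yoda1 libraries, against 39.3 and 38.1 in Control libraries. In MkE-gated cells it was 40.2 and 42.4 in Yoda1 libraries, against 38.7 and 37.7 in Control libraries, and there the groups did not overlap (exact permutation p = 0.33, the smallest this design allows). Lymphoid-gated cells had 40.4 and 41.4 in Yoda1 libraries, against 40.6 and 36.1 in Control libraries, and Flt3-gated cells 41.3 and 39.1 in Yoda1 libraries, against 40.3 and 31.9 in Control libraries. In these last 2 classes Control 2 was the low library. With TMM scaling the lymphoid groups did not overlap either. Cells that passed no gate had 43.6 and 43.1 in Yoda1 libraries, against 41.1 and 40.001 in Control libraries, again without overlap.

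**Figure D5:**
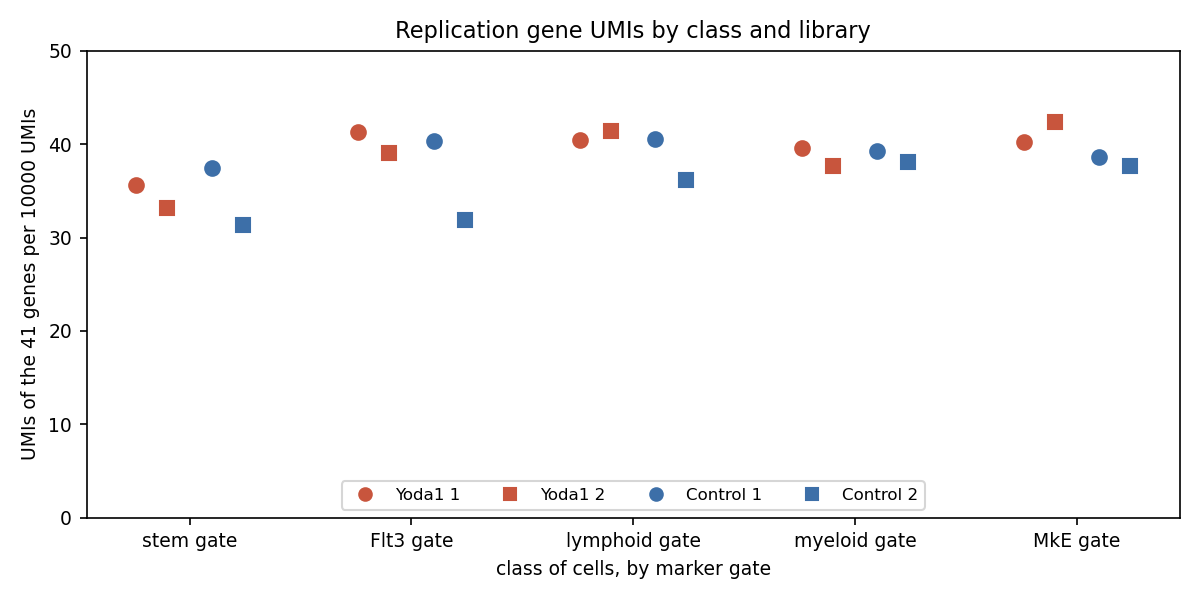
UMIs of the 41 genes per 10000 UMIs in each gated class and library (circles replicate 1, squares replicate 2; Yoda1 left of Control in each class). The Yoda1 points lie above both Control points in the MkE gate but in none of the other 4; in the Flt3 and lymphoid gates Control 2 is lowest.

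edgeR's quasi-likelihood test called 0 members in each of the 5 classes, where 0% (stem, myeloid, MkE), 0.129% (Flt3) and 0.00771% (lymphoid) of all genes were called. At an unadjusted p under 0.05 there were 0, 2, 1, 0 and 1 members in stem, Flt3, lymphoid, myeloid and MkE gates, and 303, 515, 317, 264 and 293 genes. Both Yoda1 libraries lay above both Control libraries for 19 of 41 members in the MkE gate (12.1% of genes) and below for 0 (16.1%). The counts above were 16 in the lymphoid gate (14.7% of genes), 10 in the Flt3 gate (15.4%), 7 in the myeloid gate (11.3%) and 1 in the stem gate (13.5%); those below were 0 (15%), 0 (16.7%), 4 (13.6%) and 1 (13.6%) in the same order. With library totals alone the counts above were 15 in the MkE gate (11% of genes), 13 in the lymphoid gate (9.73%), 11 in the Flt3 gate (17%), 3 in the myeloid gate (8.27%) and 1 in the stem gate (12.1%). Those below were then 0 (17.4%), 1 (20.2%), 0 (14.9%), 5 (17.8%) and 2 (14.7%) in the same order.

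The members' median log2 fold change (Yoda1 over Control) was 0.12 in the MkE gate with 37 of 41 above 0, and between 0.09 and 0.16 with each library left out. It was also 0.12 in the lymphoid and Flt3 gates, but there it was 0.04 and -0.01 without Control 2. It was 0.01 in the stem gate and 0.03 in the myeloid gate, and turned below 0 in both without Yoda1 1 (-0.09 and -0.08). In the stem gate it was 0.18 without Control 1 and -0.13 without Control 2.

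These medians also depended on the gates. With gates set on all UMIs of a cell in place of thinned ones, the members' median in the stem gate was 0.33, with 38 of 41 above 0 and 9 members at an unadjusted p under 0.05. In the MkE gate it was then 0.24, with 39 above 0 and 11 at an unadjusted p under 0.05. It was 0.19 in the lymphoid gate and 0.07 in the myeloid gate, and edgeR called 0 members in each of these 4 gates. The matching values over all genes are not given for these fits, so these counts cannot be read as particular to the members. With doubled gate minimums the medians were 0.03 (stem), 0.10 (Flt3), 0.12 (lymphoid), 0.05 (myeloid) and 0.11 (MkE).

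Cdca7 had the smallest p in the MkE gate, at 143 and 136 CPM in Yoda1 libraries, against 117 and 107 CPM in Control libraries (0.33 ± 0.11, edgeR adjusted p = 1.0). In stem-gated cells Mcm6 was at 217 and 173 CPM in Yoda1 libraries, against 136 and 170 CPM in Control libraries, and the gap between Yoda1 2 and Control 2 was small. In lymphoid-gated cells Mcm6 was at 331 and 257 CPM in Yoda1 libraries, against 231 and 223 CPM in Control libraries (0.37 ± 0.15), and it did not pass in either class.

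Whether the treatment difference itself differed between classes was tested as an interaction. The quasi-likelihood test of edgeR called 23 of 13730 genes (0.168%) and 0 members; at an unadjusted p under 0.05 there were 735 genes and 1 member, Ccne2. Ccne2 was at 16.3 and 14.3 CPM in myeloid-gated cells of Yoda1 libraries, against 17.0 and 19.6 CPM in those of Control libraries. In lymphoid-gated cells it was at 15.5 and 15.9 CPM in Yoda1 libraries, against 13.0 and 13.3 CPM in Control libraries, the opposite order. The interaction did not pass adjustment for Ccne2 (edgeR adjusted p = 0.778).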

How the data were processed

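The files deposited are matrices of raw UMI counts, 1 per library, made with Cell Ranger 7.1.0 per the file headers. The submitters' processing notes list Seurat 4.3.0, with GRCm38 (mm10) as the build. Whether cells were captured by 10x Genomics droplets or on a microwell chip is uncertain, as both are named in the labels' protocols. Gene positions are from GENCODE M21.

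Cells with at least 500 genes, 1000 UMIs and at most 10% mitochondrially encoded UMIs were kept; no doublet caller was run. UMIs were summed per library, or per library and class of at least 50 cells, and tested with edgeR 4.0.16 in R 4.3.3 (quasi-likelihood test, TMM, filterByExpr, Benjamini-Hochberg over all genes, threshold 0.05); DESeq2 1.42.0 was an alternative. An SE is the unshrunk log2 fold change over the square root of F. Class contrasts and the interaction had library as a block. Thinning to 3000 UMIs left out 154 and 446 shallower cells of Yoda1 libraries and 226 and 252 of Control libraries. On thinned cells the stem and lymphoid gates needed 1 UMI of their genes, the myeloid gate 5 and the MkE gate 3; a cell passing only 1 gate took its class, and one passing none with a Flt3 UMI was Flt3. Sums over members were tested with an exact permutation test over 4 libraries (scipy 1.17.1). Alternatives were RLE normalization, no filter on low counts, other cell filters, removal of the cells of highest UMI (0.8% per 1000 cells), other gates, a replicate block, and each library left out; library totals without TMM were added after the data were seen. The edgeR test over all cells was tried on simulated counts. The members and gene lists were chosen with earlier results of these data known. Values per library were named for the most abundant member of each role and the one of smallest p, and for the 4 highest and 4 lowest members of a contrast; for other replication genes and G1/S regulators those of at least 10 CPM on average were ranked; others were chosen after their values were seen.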

Additional observations from a re-analysis of the deposited data

How the results depend on the processing

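A single library decided most directions over all cells, and Yoda1 2, the shallowest library, lost most cells to thinning. The module difference was -0.284 with TMM-scaled totals. With library totals it was 0.776, and it ran from -0.417 to 1.97 with a library left out. DESeq2 called 4 genes over all cells. No alternative or library left out gave a called member over all cells, in any gate for the treatment, or in the interaction. The labels number replicates 1 and 2 in both groups without saying that the numbers pair libraries; with the replicate block 0 genes were called over all cells, 128 in the Flt3 gate, 19 in the lymphoid, 7 in the myeloid and 10 in the MkE gate (13, 1, 0 and 0 without it). The Flt3 gate gave 2 genes with library totals and 0 with gate minimums doubled. The lymphoid gate gave 0 with gates on all UMIs and 0 with doubled minimums, the myeloid gate 2 on all UMIs, and the interaction 1 with doubled minimums. Gates on all UMIs left the Flt3 gate under 50 cells in a library, so it was not run there. Members called in Flt3 over stem were 12 with totals.

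With each library left out the genes called were 0 to 938 over all cells, 0 to 77 in the stem, 0 to 173 in the Flt3, 0 to 261 in the lymphoid, 0 to 249 in the myeloid and 0 to 59 in the MkE gate, 2 to 177 in the interaction and 1364 to 1907 in Flt3 over stem (2365 with all libraries), with 13 to 22 members. For the members the log2 fold changes then ran, over all cells, from -0.072 to 0.42 (Mcm6), -0.47 to 0.0336 (Mcm2), -0.19 to 0.13 (Tipin), -0.25 to 0.0769 (Cdc45), -0.15 to 0.0513 (Rfc2), -0.0608 to 0.25 (Pola1), -0.16 to 0.19 (Tyms), -0.43 to 0.0838 (Rrm2), -0.39 to 0.18 (Nasp), -0.14 to 0.45 (Cdca7), -0.21 to 0.26 (Usp1), -0.62 to 0.0776 (Blm) and -0.73 to 0.00816 (E2f8). In Flt3 over stem they ran from -0.11 to 0.0695 (Ubr7), -0.0652 to 0.000446 (Chaf1b), -0.22 to 0.13 (Cenpu) and -0.0402 to 0.0937 (E2f8), in lymphoid over stem from -0.11 to 0.011 (Ubr7) and -0.0961 to 0.0478 (Cenpu), in myeloid over stem from -0.0294 to 0.047 (Dtl) and -0.0364 to 0.0486 (Chaf1b), and in MkE over stem from -0.0172 to 0.0696 (Wdr76).

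The sign also turned with library totals for Tipin (0.0169) over all cells, Cenpu (-0.092) and E2f8 (-0.0464) in Flt3 over stem, Cenpu (-0.13) and Rfc2 (-0.0554) in lymphoid over stem, Dtl (-0.33), Chaf1b (-0.32), Ubr7 (-0.28) and Casp8ap2 (-0.22) in myeloid over stem and Wdr76 (-0.18) in MkE over stem. It turned without the cells of highest UMI for Tyms (-0.00693) over all cells. With gates on all UMIs it turned for Rfc2 (-0.00521) in lymphoid over stem and Brip1 (0.50), Hells (0.13) and Dtl (0.27) in MkE over stem, and with doubled minimums for Ubr7 (0.0803) in Flt3 over stem and Hells (0.11) and Dtl (0.00779) in MkE over stem. Apart from Brip1 and Hells in MkE over stem these members had not passed in that contrast. The cause was not tested.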
